A study of Homo sapiens with 12 samples.

Results

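HCT116 is a colorectal cancer cell line, and the line described here, HCT116CDX1, carries the homeobox factor CDX1 without added EHF. It was compared with the empty vector line HCT116EV. The members are 6 of the 12 RNA-seq libraries of the series, 3 of HCT116CDX1 and 3 of HCT116EV, chosen by their labels. The remaining libraries belong to HCT116EHF and HCT116EHF+CDX1, 3 each, and serve here only to show where HCT116CDX1 stands among the lines. HCT116EV cells were transfected with the plasmid pcDNA3.1 without an insert, and geneticin-resistant clones were taken. HCT116CDX1 cells were transduced with a retrovirus that carries CDX1 and GFP, and GFP-positive cells were sorted and expanded. HCT116EHF+CDX1 cells were made by transfecting HCT116CDX1 cells with EHF and again taking geneticin-resistant clones. The vector, the drug, the sort and CDX1 therefore differ together between HCT116CDX1 and HCT116EV, and their parts cannot be told apart. The labels give no separate cultures for the 3 libraries of a line, so the p-values measure only the spread between these libraries, which may be technical.

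CDX1 is a caudal-type homeobox factor of the intestinal epithelium that binds AT-rich sites in its target genes. It is known in colorectal cells for promoting differentiation and for restraining growth. DNA replication genes, by contrast, are under E2F factors and rise as cells enter S phase, while immediate-early genes such as JUN and FOS answer growth factors and stress within a short time. Heat shock genes, unfolded protein response genes and ATF4 targets answer misfolded proteins and amino acid shortage. These groups are described below in that setting, with the processes other than heat shock in the foreground and with genes of the Y chromosome left out.

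The 3 HCT116EV libraries held 19305351 to 55958129 counts and the 3 HCT116CDX1 libraries 46028589 to 57133355. CDX1 was at 487, 559 and 529 CPM, which are counts scaled to a common library total, in HCT116CDX1, and the 3 HCT116EV libraries held at most 1 read of it each (chromosome 5, 150166778 to 150184558, GRCh38). CDX1 was thus high in the line labelled with it and near 0 in HCT116EV. The other transgene, EHF, averaged 19300 CPM in HCT116EHF and 18700 CPM in HCT116EHF+CDX1, but it was also at 335, 326 and 237 CPM in HCT116EV, against 12, 13 and 11.9 CPM in HCT116CDX1. The study describes HCT116 as a line with little EHF, so HCT116EV is not an EHF-free baseline, and the part of its EHF level in the differences below was not tested. EPCAM, CDH1, KRT8, KRT18 and KRT19, which mark epithelial cells, were present in all 6 libraries, with CDH1 at 110 to 374 CPM. HCT116EV replicate 3 stood apart. Its root mean square log2 difference from the other HCT116EV libraries was 0.895 and 0.884, against 0.419 between those libraries and 0.409 to 0.417 among the HCT116CDX1 libraries. It differed from the HCT116CDX1 libraries by 1.43 to 1.53, so it still lay nearer to its own line. Counts of a list without it, or with it as the only HCT116EV library, are given where they moved by over 1.5 times and by 3 genes or more. The latter is a comparison added after its position was seen, and in it the lone library is assumed to vary like the other lines. CPM values were scaled with TMM factors, which were 0.799 to 0.845 in HCT116CDX1 and 0.973 to 1.09 in HCT116EV. They enter every CPM value below. Heat shock and chaperone genes took 6.62% to 8.51% of the HCT116CDX1 counts and 0.791% to 1.87% of the HCT116EV counts.

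Of 15842 genes tested, 3384 were induced in HCT116CDX1 and 3680 repressed, which is 21.4% and 23.2%. Here and below, induced and repressed genes are those that passed edgeR's test for changes beyond 1.5-fold, with adjusted p-values (Benjamini-Hochberg) under 0.05. Without HCT116EV replicate 3 there were 4160 and 3930. The split between the directions depended on the scaling, because with total counts in place of TMM factors 2273 genes were induced and 5104 repressed. Induced genes were then 30.8% of the calls against 47.9%, and the median log2 fold change of all genes moved from -0.03 to -0.37. In bulk RNA, fewer cells that express a gene and less of its RNA per cell cannot be told apart.

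Among the 10 largest falls of well-expressed genes was NRG1, a growth factor that binds ERBB receptors. NRG1 was at 103, 101 and 158 CPM in HCT116EV and at 3.02, 1.89 and 2.78 CPM in HCT116CDX1, a log2 fold change of -5.55 ± 0.24 (SE, n = 3 per line, adjusted p = 9.8e-09 in edgeR). The lines did not overlap. OGDHL, a mitochondrial enzyme related to oxoglutarate dehydrogenase, was at 61.6 to 64.4 CPM in HCT116EV and at 1.19 to 1.88 CPM in HCT116CDX1 (-5.27 ± 0.18). H19, an imprinted noncoding RNA, was at 106 to 120 CPM against 2.53 to 4.18 CPM (-5.06 ± 0.18). These 3 genes were highest in HCT116EV among the 4 lines. NRG1 averaged 7.86 CPM in HCT116EHF, which has no added CDX1, and 16.6 CPM in HCT116EHF+CDX1. In the same order OGDHL averaged 12.6 and 10.3 CPM, and H19 6.29 and 4.77 CPM. For TNS4 HCT116CDX1 was the lowest of the lines by far. TNS4, a focal adhesion protein, was at 79.4 to 81.0 CPM against 3.78 to 4.56 CPM (-4.25 ± 0.09), with 73.3 and 118 CPM in the remaining lines. EHF, at the levels given above, was also lower in HCT116CDX1 than in HCT116EV (-4.60 ± 0.17). Also among the 10 largest falls were SEMA3A, ADAMTS14 and PIGQ, with log2 fold changes of -4.43, -4.23 and -4.05.

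Most of the largest rises were of heat shock genes, with HSPA1A, HSPA1B, HSPA1L, HSPB8, DNAJB1 and ZFAND2A among the top 10. HSPA1A and HSPA1B are nearly identical in sequence, and their reads may be split between them. The others of the 10 were NFATC2, GEM, JUN and CPA4. NFATC2, a calcium-regulated transcription factor, was at 0.258, 0.899 and 1.80 CPM in HCT116EV and at 112, 77.7 and 82.7 CPM in HCT116CDX1 (6.34 ± 0.39, adjusted p = 1.0e-07 in edgeR). GEM, a small GTPase of the RGK family, was at 3.98 to 6.71 CPM against 251 to 405 CPM (5.91 ± 0.25). CPA4, a carboxypeptidase, was at 2.41, 2.65 and 15.3 CPM against 286, 336 and 246 CPM (5.33 ± 0.58), so HCT116EV replicate 3 was the highest of its line. All 10 of these genes were lower in HCT116EHF+CDX1 than in HCT116CDX1 in the same fit.

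By gene list, 51 lists with 2132 tested genes were examined. Among the processes that fell were DNA synthesis, DNA repair and the cilium and centrosome. Mitosis also fell, but not against HCT116EV replicate 3 alone. Among the processes that rose, beside heat shock, were immediate-early signalling, NF-kB targets, ubiquitin and autophagy, the circadian clock, NRF2 targets, ATF4 targets, clustered histones and transcription. Each list is read against the shares of all tested genes, 21.4% induced and 23.2% repressed. Heat shock and cytosolic chaperones had 30 of 41 tested members induced and 0 repressed, with a median log2 fold change of 2.07.

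**Figure D1:**
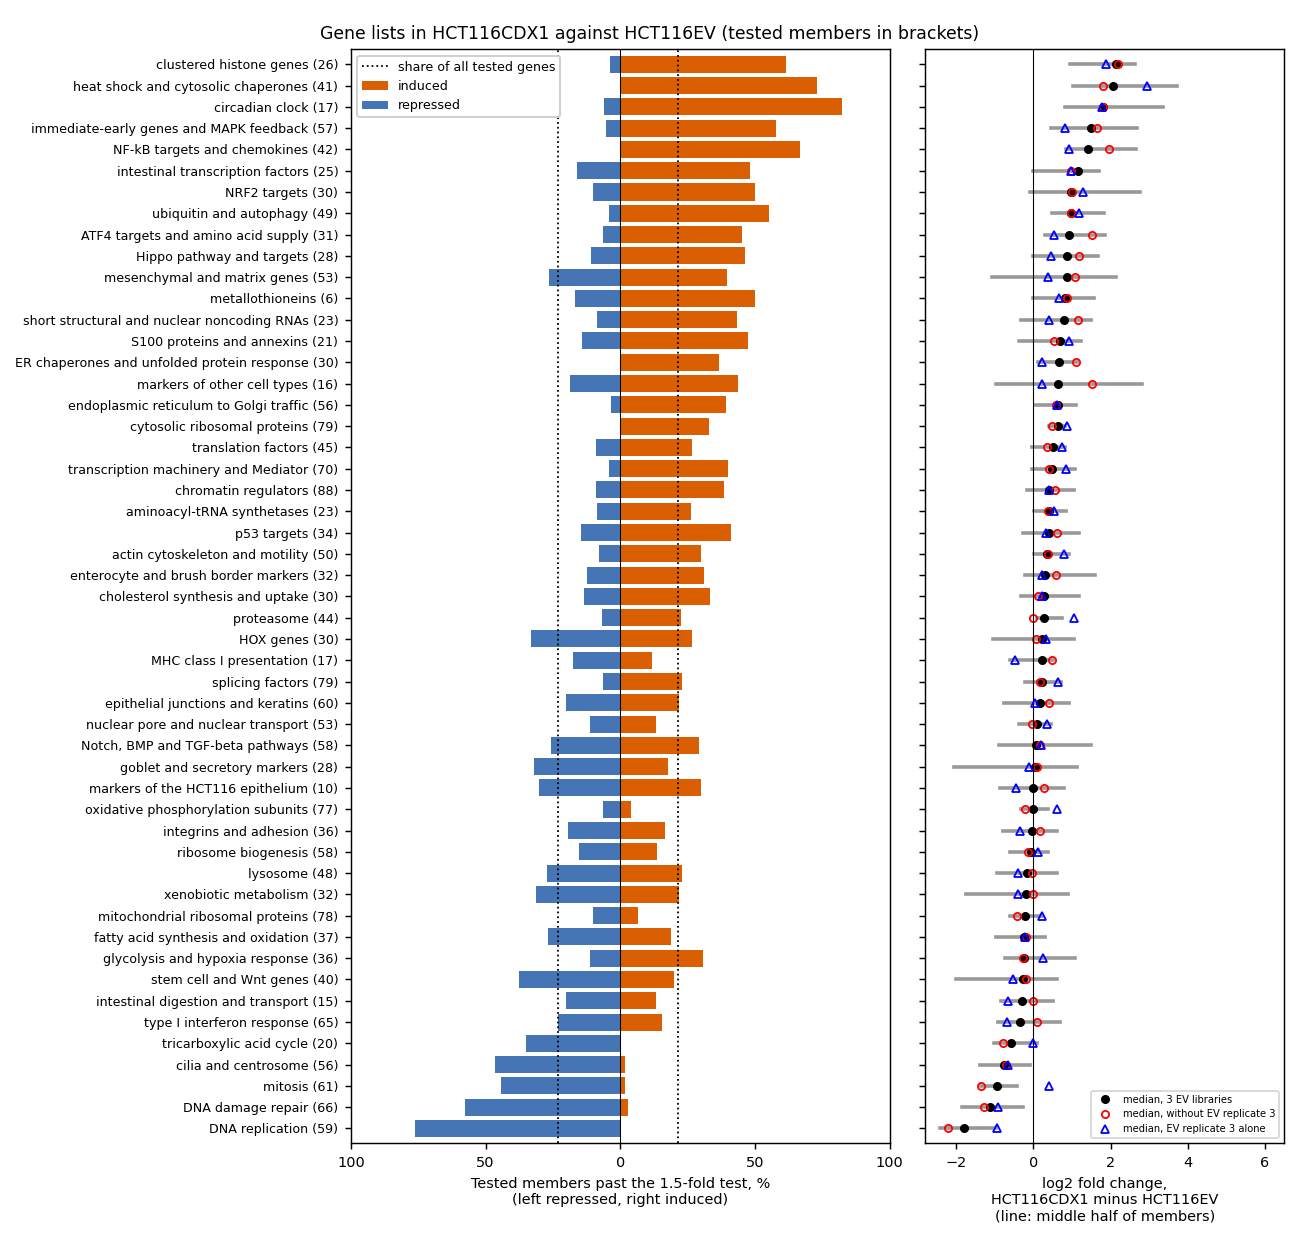
Left, share of the tested members of each of the 51 lists that were repressed (blue) or induced (orange), with dotted lines at the shares of all tested genes, 23.2% and 21.4%. Right, median log2 fold change with all HCT116EV libraries (black), without replicate 3 (red) and with replicate 3 alone (blue), with a grey line from the lower to the upper quartile of the members. DNA replication, DNA damage repair and the cilia list stay below 0 in all 3 versions, while mitosis changes side.

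DNA replication genes were lower in HCT116CDX1 nearly throughout. Of 59 tested members 45 were repressed and 0 induced, and the median log2 fold change was -1.79, against -0.03 for all genes. Genes of origin licensing and firing had 17 of 25 repressed, and genes of the fork and of nucleotide supply 28 of 34. All 6 subunits of the MCM2-7 helicase, which unwinds the template, were repressed, between -3.46 and -1.29. MCM4 was at 569, 581 and 199 CPM in HCT116EV and at 40.1, 41.6 and 41.1 CPM in HCT116CDX1. Replicate 3 of HCT116EV was the lowest of its line and still above each HCT116CDX1 library. The polymerase alpha-primase complex, which lays the primers, had 3 of 4 subunits repressed, and PRIM1 was at 43.8, 43.3 and 14.2 CPM against 1.82, 1.62 and 2.55 CPM (-4.07 ± 0.37, adjusted p = 3.4e-06 in edgeR). CDC7, the kinase that fires origins, was at 23.6 to 38.4 CPM against 1.87 to 3.32 CPM (-3.81 ± 0.24). The GINS complex had 3 of 4 members repressed. These complexes were picked out after their values were seen. Members not past the test included CCNE1 at 0.59, DBF4 at 0.50 and ORC2 at 0.08. In all 3 HCT116CDX1 libraries 46 members were below every HCT116EV library, a pattern that 32.7% of all genes showed. Without HCT116EV replicate 3 there were 51 repressed, and with it as the only HCT116EV library 35 of the 59, with a median of -0.95.

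E2F factors act through sites in the promoters of such genes, so promoter windows from RefSeq (GRCh38.p14, 250 bases before to 50 after the start) were searched for the E2F letters TTTCGCGC or TTTGGCGC on both strands. They were found for 50 of the 59 genes, and 13 of these 50 windows, or 26.0%, held either motif, against 2% of 12082 windows of all tested genes. Of the 13 genes 12 were repressed (median -2.21), and of the 37 without the motif 25 were repressed (median -1.69). The clustered histone list, which rose, had a similar share of windows with either motif, at 25%. Over all tested genes, 1.42% of the windows of induced genes and 2.47% of those of repressed genes held it. The median log2 fold change of all genes was -0.15 with the motif and -0.01 without. The part of E2F factors in these values was not tested. E2F1, itself an E2F factor, was at 49.2, 54.3 and 35.5 CPM in HCT116EV and at 3.92, 5.81 and 3.76 CPM in HCT116CDX1, and E2F2 was repressed too (-2.55), while E2F5 was induced (1.45) and E2F3, E2F4, E2F6, E2F7 and E2F8 did not pass. POLA2, a subunit of polymerase alpha-primase, was at 44.6, 42.3 and 17 CPM against 3.48, 4.12 and 4.01 CPM. The windows of E2F1 (chr20:33686336-33686635, minus strand) and POLA2 (chr11:65261712-65262011, plus strand) are shown because these were the 2 largest falls among the list members with a motif, the E2F letters in capitals.
E2F1: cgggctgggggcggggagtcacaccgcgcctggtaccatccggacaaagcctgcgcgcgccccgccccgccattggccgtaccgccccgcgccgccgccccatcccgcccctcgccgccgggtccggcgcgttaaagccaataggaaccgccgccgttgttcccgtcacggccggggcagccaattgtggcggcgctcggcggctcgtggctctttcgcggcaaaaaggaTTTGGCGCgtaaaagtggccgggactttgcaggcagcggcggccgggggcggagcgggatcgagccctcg
POLA2: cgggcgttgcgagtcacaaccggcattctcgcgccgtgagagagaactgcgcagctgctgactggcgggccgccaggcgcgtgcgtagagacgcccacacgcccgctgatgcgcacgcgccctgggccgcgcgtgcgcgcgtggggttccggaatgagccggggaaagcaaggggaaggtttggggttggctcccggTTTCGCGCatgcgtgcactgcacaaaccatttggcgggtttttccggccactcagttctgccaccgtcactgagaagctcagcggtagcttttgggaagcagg

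DNA damage repair genes fell with them. Of 66 tested members 38 were repressed and 2 induced, with a median of -1.12. Double-strand break and crosslink repair had 27 of 41 repressed, and mismatch and excision repair 11 of 25. BRCA1, central to homologous recombination, was at 59.6, 65.0 and 54.5 CPM in HCT116EV and at 4.05, 5.10 and 6.48 CPM in HCT116CDX1 (-3.52 ± 0.16, adjusted p = 1.5e-08 in edgeR). BRIP1, a helicase bound by BRCA1, was at 17.1 to 28.3 CPM against 2.68 to 4.23 CPM, and XRCC2, of homologous recombination, at 18.6 to 21 CPM against 2.21 to 3.49 CPM. BRCA1 and XRCC2 were at similar levels in all 3 HCT116EV libraries. The 2 induced members were LIG4, the ligase of end joining (1.25 ± 0.28), and ERCC6, which acts in transcription-coupled repair (1.07 ± 0.20), and neither passed with HCT116EV replicate 3 as the only HCT116EV library. The counts changed little with that library, with 39 repressed without it and 38 with it alone.

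The list of cilia and centrosome genes was also low. Of 56 tested members 26 were repressed and 1 was induced, and the median was -0.77. CEP41, a centrosomal protein, was at 16.2, 18.8 and 16.3 CPM in HCT116EV and at 1.34, 2.58 and 2.16 CPM in HCT116CDX1 (-3.08 ± 0.20). The intraflagellar transport genes IFT122 and IFT81 were at -2.58 and -2.37. IFT20, which also works at the Golgi, was the member that rose, from 7.62 to 11.2 CPM to 20.3 to 22.3 CPM. The 3 HCT116EV libraries lay close together for this list, at mean log2 levels of 0.31, 0.27 and 0.24 relative to the mean of the 4 lines, against -0.61, -0.57 and -0.51 in HCT116CDX1. With replicate 3 as the only HCT116EV library 23 were repressed. With voom and quantile normalization there were 17.

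Mitosis genes behaved differently between the HCT116EV libraries. With all of them 27 of 61 tested members were repressed and 1 induced, with a median of -0.94. The members repressed most were kinetochore genes, with SPC24 at 27.0, 28.3 and 6.08 CPM against 1.53, 2.58 and 1.72 CPM, CENPI at 13, 12.5 and 4.52 CPM against 0.832, 0.733 and 1.29 CPM, and CENPM at 29.8, 29.2 and 15.3 CPM against 2.39, 2.83 and 1.90 CPM. ANLN, which acts in the cleavage furrow, was induced (1.71 ± 0.29). On the mean log2 level of the list, HCT116EV replicates 1 and 2 were at 0.54 and 0.53, replicate 3 was at -1.08, and the HCT116CDX1 libraries were at -0.69, -0.95 and -0.82. Replicate 3 thus lay below HCT116CDX1. Without it 47 members were repressed, and with it as the only HCT116EV library 8 were repressed and 23 induced, with a median of 0.40. The fall of mitosis genes as a list therefore rests on HCT116EV replicates 1 and 2, and without replicate 1 it came to 16 members, without replicate 2 to 17. Leaving out HCT116CDX1 replicate 2 also gave 16.

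**Figure D2:**
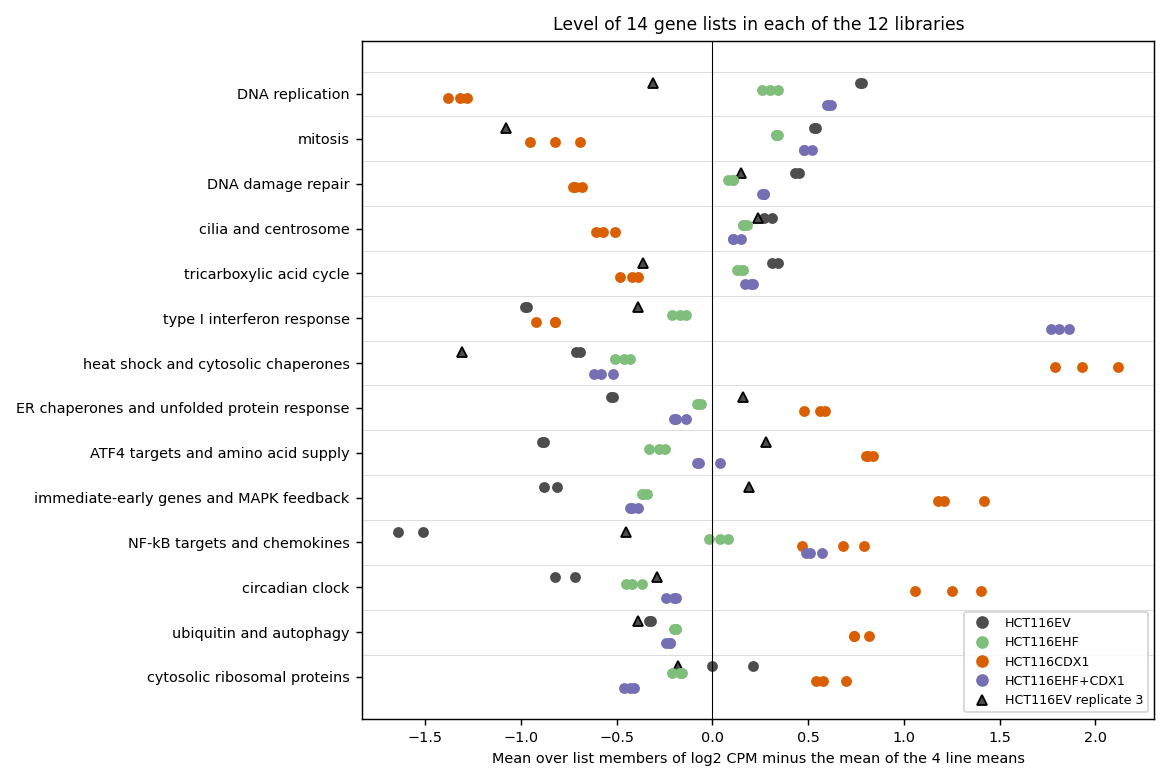
Mean log2 CPM of the members of 14 lists in each of the 12 libraries, relative to the mean of the 4 lines (horizontal axis, log2 units). Colours give the line and the triangle is HCT116EV replicate 3, which lies between the other HCT116EV libraries and HCT116CDX1 for DNA replication, beyond HCT116CDX1 for mitosis, and with its own line for cilia and for ubiquitin and autophagy.

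Energy metabolism was uneven. No tricarboxylic acid cycle enzyme was induced and 7 of 20 were repressed, with a median of -0.59. IDH2, the mitochondrial isocitrate dehydrogenase, was at 54.9, 54.6 and 24.2 CPM against 8.30, 14.1 and 9.78 CPM (-2.05 ± 0.28). Glycolytic enzymes had 4 of 18 repressed, near the share of all genes, and 1 induced, with a median of -0.74. The largest fall was of the glucose transporter SLC2A1, which was counted with them and not with the hypoxia targets. SLC2A1 was at 785, 777 and 1280 CPM in HCT116EV against 74.7, 87.4 and 69.7 CPM in HCT116CDX1 (-3.61 ± 0.19). Hypoxia targets had 10 of 18 induced and 0 repressed. ADM, a secreted vasodilator peptide, was at 7.11, 8.95 and 17.9 CPM against 194, 145 and 132 CPM (3.77 ± 0.30), and the collagen hydroxylase P4HA2 at 39.5 to 75.1 CPM against 383 to 504 CPM (3.06 ± 0.22). Subunits of oxidative phosphorylation encoded in the nucleus had the smallest share of called members of the 51 lists, with 3 induced and 5 repressed of 77 and a median of 0.00. Among them NDUFS4 of complex I was induced (1.71 ± 0.09) and ATP5F1D of ATP synthase repressed (-1.56 ± 0.20). Mitochondrial ribosomal proteins had 5 of 78 induced and 8 repressed. These lists shifted with HCT116EV replicate 3. Without it 11 tricarboxylic acid cycle, 13 glycolysis and hypoxia, 14 oxidative phosphorylation and 26 mitochondrial ribosomal genes were repressed. With it alone 3, 5, 2 and 2 were repressed and 3, 13, 33 and 22 induced. Without HCT116EV replicate 1 there were 7 oxidative phosphorylation genes induced.

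The mitochondrial genome itself was split, an observation made after the values were seen. All 13 of its coding genes were below 0 (median -1) and 5 were repressed, whereas both ribosomal RNAs were induced. RNR2, the large ribosomal RNA, was at 5550, 6060 and 11400 CPM in HCT116EV and at 26500, 26000 and 21900 CPM in HCT116CDX1 (1.69 ± 0.24), and RNR1 at 988, 1040 and 2400 CPM against 4980, 5050 and 4360 CPM (1.70 ± 0.28). For ND2, a complex I subunit, HCT116EV replicates 1, 2 and 3 were at 3340, 3570 and 19100 CPM. Replicate 3 was the highest for the coding genes, and without it 3 of 13 were repressed, with a median of -0.38. With replicate 3 as the only HCT116EV library the median was -1.7, so the size of this fall depended largely on that library.

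Lipid genes moved in both directions. Fatty acid oxidation had 9 of 24 tested members repressed and 4 induced, with the dehydrogenase ACADSB at -3.00 ± 0.18 and HADH at -2.14 ± 0.25. PDK4, which restrains entry of pyruvate into the mitochondrion, was induced from 0.809 to 1.03 CPM to 5.08 to 10.2 CPM (2.98 ± 0.28). In cholesterol synthesis and uptake 10 of 30 were induced and 4 repressed. LSS, the lanosterol synthase, was at 160, 157 and 129 CPM against 21.3, 25.7 and 24.9 CPM (-2.63 ± 0.11), and NPC1L1, the intestinal cholesterol transporter, rose from 0.284 to 0.827 CPM to 16.3 to 20.5 CPM (4.95 ± 0.29). Lysosome genes had 11 of 48 induced and 13 repressed, with NPC1, which moves cholesterol out of the lysosome, at 2.75 ± 0.40 and the protease CTSH at -3.55 ± 0.20. With HCT116EV replicate 3 alone 20 were repressed.

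Outside heat shock, protein quality control rose most in the ubiquitin and autophagy list. Of its 49 tested members 27 were induced and 2 repressed, with a median of 0.96, and 20 of 33 autophagy genes were induced. GABARAPL1, an autophagosome protein, was at 23, 18.4 and 22.8 CPM in HCT116EV and at 211, 196 and 172 CPM in HCT116CDX1 (3.17 ± 0.12, adjusted p = 4.0e-09 in edgeR), and the protease ATG4A at 2.37 to 3.93 CPM against 23.0 to 27.6 CPM. The 3 HCT116EV libraries were alike for these genes. STUB1, an E3 ligase that works with chaperones, went down (-1.55 ± 0.15), as did ATG10 (-2.03 ± 0.18). The proteasome differed, since 0 of 14 subunits of the 20S core and 10 of 30 genes of the 19S cap and assembly were induced. With HCT116EV replicate 3 alone 35 proteasome genes were induced, with total counts 2, and without HCT116CDX1 replicate 1 there were 6.

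In the endoplasmic reticulum (ER), 11 of 30 tested chaperone and unfolded protein response genes were induced and 0 repressed (median 0.67). HSPA5, the main ER chaperone, was at 809, 799 and 1790 CPM in HCT116EV and at 7190, 5780 and 7030 CPM in HCT116CDX1 (2.56 ± 0.27). DNAJB9, its co-chaperone, was at 5.64, 6.67 and 21.7 CPM against 73.8, 67.8 and 75.3 CPM (2.63 ± 0.39), and HERPUD1, of ER-associated degradation, at 43.2, 44.6 and 106 CPM against 349, 316 and 390 CPM (2.44 ± 0.28). Replicate 3 of HCT116EV was the highest of its line for all of these, and without it 21 members were induced, with it alone 9. The ER stress element, searched on both strands as CCAAT and CCACG with 9 bases of any kind between them, stood in 7 of 28 promoter windows of the list, or 25%, against 0.132% of all windows. Of the genes with it HSPA5, HSP90B1 and XBP1 were induced, and CALR, CANX, CRELD2 and ERO1B did not pass (-0.32, 0.53, -0.73 and 0.67). The HSPA5 window (chr9:125241294-125241593, minus strand) is shown as the largest rise among them, with the element in capitals.
HSPA5: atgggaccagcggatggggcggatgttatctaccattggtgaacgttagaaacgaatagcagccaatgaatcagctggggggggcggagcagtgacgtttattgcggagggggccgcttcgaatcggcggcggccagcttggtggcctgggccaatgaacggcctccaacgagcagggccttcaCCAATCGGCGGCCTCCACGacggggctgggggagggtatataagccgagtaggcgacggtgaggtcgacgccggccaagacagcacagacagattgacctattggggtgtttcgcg

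ATF4 targets and amino acid supply had 14 of 31 induced and 2 repressed. The stress regulators had 11 of 13 induced, and amino acid synthesis and uptake 3 of 18. These were 13 and 10 without HCT116EV replicate 3. ATF3, a stress-induced repressor, was at 18, 16 and 59.5 CPM in HCT116EV and at 730, 684 and 644 CPM in HCT116CDX1 (4.45 ± 0.43). PPP1R15A, which restores translation after stress, was at 36.8, 36.6 and 133 CPM against 1290, 1010 and 1100 CPM (4.04 ± 0.43), and DDIT3, a pro-death factor, at 5.86, 5.63 and 52.8 CPM against 142, 154 and 165 CPM (2.81 ± 0.66). CTH, which makes cysteine, fell by 3.01 on the log2 scale, from 96.2 to 138 CPM to 13.2 to 16.9 CPM, and was also low in HCT116EHF (15.9 CPM). For the whole list there were 23 induced without that library, and 10 with it alone. Genes of ER to Golgi traffic had 22 of 56 induced and 2 repressed, led by the coat proteins SEC24D (2.53 ± 0.17) and SEC24A (1.97 ± 0.18). With voom and quantile normalization 11 were induced, and with HCT116EV replicate 3 alone 24 were induced and 5 repressed.

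Immediate-early genes and feedback regulators of MAPK signalling had 33 of 57 tested members induced and 3 repressed, with a median of 1.49. The transcription factors made up 22 of these, of 30. JUN was at 16.8, 18 and 59.1 CPM in HCT116EV and at 1740, 1470 and 1500 CPM in HCT116CDX1 (5.64 ± 0.44, adjusted p = 7.0e-07 in edgeR). All 8 tested genes of the Fos and Jun families and ATF3 were induced, between 1.19 for JUNB and 5.64 for JUN, and 6 of the 8 with HCT116EV replicate 3 alone. The grouping was made after the values were seen. FOSL1 was at 88.8, 89.0 and 151 CPM in HCT116EV, and its log2 fold change was 3.5. DUSP1, a phosphatase that switches MAP kinases off, was at 10.9, 10.9 and 31.7 CPM against 561, 463 and 502 CPM (4.81 ± 0.37). DUSP5, DUSP8, DUSP10 and DUSP16 rose with it (4.42, 4.01, 2.84 and 2.70), whereas DUSP4, DUSP6 and DUSP7 did not pass (-0.49, 0.46 and 0.63). The growth factor EREG and the receptor ERBB2 were repressed (-1.15 ± 0.18 and -1.19 ± 0.16). The HCT116EV replicate 3 library lay above its line here, at a mean log2 list level of 0.19 against -0.88 and -0.81, with HCT116CDX1 at 1.18 to 1.42, and with it alone 32 were induced and 7 repressed. The cAMP response element TGACGTCA was found in 5 of 43 windows of the list, or 11.6%, against 3.10% of all windows, and the AP-1 site TGANTCA in 3, or 6.98%, against 4.91%. Of the 3 genes with the AP-1 site 1 was induced and 1 repressed. Of the 5 genes with the cAMP response element 3 were induced, and of the 38 without it 22. The share with this element was similar in lists that fell, at 10.9% for cilia and centrosome and 9.8% for mitosis. The DUSP1 window (chr5:172771146-172771445, minus strand), the largest rise with the element, shows it in capitals.
DUSP1: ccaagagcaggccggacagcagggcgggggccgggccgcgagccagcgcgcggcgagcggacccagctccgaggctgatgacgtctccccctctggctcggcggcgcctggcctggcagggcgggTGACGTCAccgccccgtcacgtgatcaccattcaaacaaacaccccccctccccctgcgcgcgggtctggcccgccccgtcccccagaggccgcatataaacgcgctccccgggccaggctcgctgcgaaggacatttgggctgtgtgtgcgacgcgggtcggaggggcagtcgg

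Across all genes the AP-1 letters stood in 6.97% of the windows of induced genes and 3.26% of those of repressed genes, and the letters TTTATNG, a form of the CDX site, in 7.24% and 5.15%, against 6.17% of all windows. The heat shock letters GAANNTTC stood in 5.81% and 3.54%, and in 35.1% of the windows of the heat shock list. A match of letters is not a bound site.

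NF-kB targets and chemokines had 28 of 42 tested members induced and 0 repressed (median 1.42). CXCL1, a neutrophil chemokine, was at 0.388, 0.379 and 3.93 CPM in HCT116EV and at 31.4, 23.4 and 22.2 CPM in HCT116CDX1 (3.82 ± 0.60). TNFAIP3, which shuts off NF-kB signalling, was at 4.09, 4.83 and 15.2 CPM against 135, 99.2 and 71.7 CPM (3.61 ± 0.42). Without HCT116EV replicate 3 there were 33 induced, with it alone 24 induced and 4 repressed. Among targets and kinases of the Hippo pathway 13 of 28 were induced and 3 repressed, with CCN2 at 0.818, 1.47 and 8.42 CPM against 157, 88.6 and 108 CPM (4.90 ± 0.61), CCN1 at 14.4 to 122 CPM against 490 to 661 CPM (3.46 ± 0.67) and TEAD2, a partner of YAP, at -2.01 ± 0.12.

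Oxidative stress genes under NRF2 had 15 of 30 members induced and 3 repressed (median 0.98). HMOX1, heme oxygenase, was at 20.9, 24.9 and 21.9 CPM in HCT116EV and at 595, 657 and 774 CPM in HCT116CDX1 (4.90 ± 0.13, adjusted p = 3.8e-10 in edgeR). FTL, the ferritin light chain, was at 1240, 1260 and 558 CPM against 10600, 9910 and 10200 CPM (3.33 ± 0.25). The efflux transporter ABCC2 went down (-1.35 ± 0.15). Of 6 metallothionein-list genes 3 were induced, MT2A from 38.5 to 60 CPM to 140 to 155 CPM, although MT2A averaged 179 CPM in HCT116EHF and 174 CPM in HCT116EHF+CDX1. Xenobiotic metabolism had 7 of 32 induced and 10 repressed, with the efflux pump ABCB1 at 3.56 ± 0.21 and GSTM4 at -2.63 ± 0.19. Among p53 targets 14 of 34 were induced and 5 repressed. GADD45A was at 33.3, 33.5 and 75.6 CPM against 601, 529 and 445 CPM (3.46 ± 0.28), SFN at 254 to 275 CPM against 971 to 1060 CPM (1.92 ± 0.08), and FDXR at 124 to 129 CPM against 23.4 to 32.1 CPM (-2.18 ± 0.11).

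The circadian clock list had the largest share of induced members of the 51 lists, 14 of 17, with 1 repressed and a median of 1.81. NR1D1, a repressor in the clock, was at 30.4, 29.3 and 56.7 CPM in HCT116EV and at 607, 529 and 472 CPM in HCT116CDX1 (3.78 ± 0.23). NFIL3 was at 12.1, 12.4 and 21 CPM against 262, 201 and 202 CPM (3.86 ± 0.21), and BHLHE41, which opposes the clock activators, at 0.129, 0.189 and 0.533 CPM against 21.4, 16.4 and 15.1 CPM. The activator ARNTL (1.85) and the repressors PER1 (2.43) and CRY1 (1.81) both rose, while CLOCK at -0.39 and CRY2 at 0.54 did not pass. Of 16 windows 5 held the E-box CACGTG, or 31.2%, against 9.90% of all windows. The share was similar in lists that did not rise, at 36% for ribosome biogenesis and 29.4% for the lysosome. It was 9.12% for induced and 9.56% for repressed genes. With HCT116EV replicate 3 alone 11 were induced.

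Clustered histone genes, whose messages normally end without a poly(A) tail and rise in S phase, were mostly higher in HCT116CDX1. The labels give the molecule as poly(A) RNA, and the selection step is not given in the sources used here. Of 56 listed genes 26 were tested, and 16 of these were induced and 1 repressed (median 2.14). H1-2 was at 10.0, 8.43 and 23.0 CPM in HCT116EV and at 87.1, 118 and 75.1 CPM in HCT116CDX1 (2.73 ± 0.32), and H2BC21 at 2.22 to 4.50 CPM against 19.2 to 28.6 CPM (2.86 ± 0.26). These genes are near copies of each other, so single values are uncertain. Some other RNAs without a tail rose too. RN7SK, which holds back transcription elongation, was at 3.06, 4.31 and 4.02 CPM against 59.8, 43.6 and 44.9 CPM (3.70 ± 0.22), and RMRP at 1.34 to 2.02 CPM against 5.13 to 9 CPM (2.03 ± 0.35). Of 10 tested small nuclear RNAs, RN7SK among them, 7 were induced (median 2.18). RNU11, RNU6-9 and RNU6ATAC of these passed the filter for testing only through the HCT116CDX1 libraries, so the count is not read as a rise of the class. Apart from RN7SK, the induced ones averaged at most 3.38 CPM in HCT116CDX1. Small nucleolar RNAs did not rise as a class, with 18 of 134 induced and 14 repressed (median -0.02). The part of RNA selection in these values was not tested. NEAT1, a nuclear RNA, was lower, at 301, 268 and 1220 CPM against 156 to 193 CPM, and HCT116EV replicate 3 was far above its line.

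Among genes of the nuclear machinery, transcription machinery and Mediator had 28 of 70 induced and 3 repressed, with TAF7 at 46.4 to 53.2 CPM against 374 to 505 CPM (3.09 ± 0.12) and the elongation factors ELL2 and ELL at 2.45 ± 0.12 and 2.13 ± 0.11. Chromatin regulators had 34 of 88 induced and 8 repressed. SMARCA2, a remodeller, was at 3.46 to 5.40 CPM against 35.8 to 47.8 CPM (3.20 ± 0.18), the demethylase KDM6A at 7.15 to 13.9 CPM against 67.6 to 88.3 CPM (2.93 ± 0.21), and CBX2 of Polycomb at 45.4 to 94.1 CPM against 14.8 to 16.8 CPM (-2.23 ± 0.22). Splicing factors had 18 of 79 induced and 5 repressed, shares near or below those of all genes, but CLK1, a kinase of SR proteins, was at 18.5, 20.4 and 49.5 CPM against 358, 281 and 295 CPM (3.39 ± 0.32), and CLK3 and CLK4 rose with it (2.50 and 2.09). Nuclear pore and transport genes had 7 of 53 induced and 6 repressed, the importin KPNA4 at 1.88 ± 0.10 and the nucleoporin NUP210 at -2.55 ± 0.11. Leaving out HCT116EV replicate 3 gave 7 transcription, 16 splicing and 10 nuclear pore and transport repressed genes, the last against 8 induced. With it alone 36 splicing and 14 nuclear pore and transport genes were induced. Without HCT116EV replicate 1 there were 5 chromatin genes repressed. With total counts 17 transcription, 20 chromatin and 7 splicing genes were induced, and with voom and quantile normalization 18, 21 and 7, the last beside 7 repressed.

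Cytosolic ribosomal proteins had 26 of 79 members induced and 0 repressed, with a median of 0.63. The values were small and alike, as with RPL24 at 184, 158 and 129 CPM against 403, 429 and 391 CPM (1.38 ± 0.12). Many of these genes have pseudogene copies. The count depended on the scaling, with 6 induced with total counts, 12 with upper quartile factors and 5 with voom and quantile normalization. It was 53 with HCT116EV replicate 3 alone. Translation factors had 12 of 45 induced and 4 repressed, EIF1 at 343 to 399 CPM against 955 to 1150 CPM (1.49 ± 0.10). With HCT116EV replicate 3 alone 25 were induced, with total counts 6 and with voom and quantile normalization 4. Ribosome biogenesis had 8 of 58 induced and 9 repressed, with 15 repressed without HCT116EV replicate 3 and 4 with it alone. Of the cytosolic aminoacyl-tRNA synthetases 6 of 23 were induced, with YARS1 at 236 to 287 CPM against 699 to 751 CPM (1.51 ± 0.10).

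**Figure D3:**
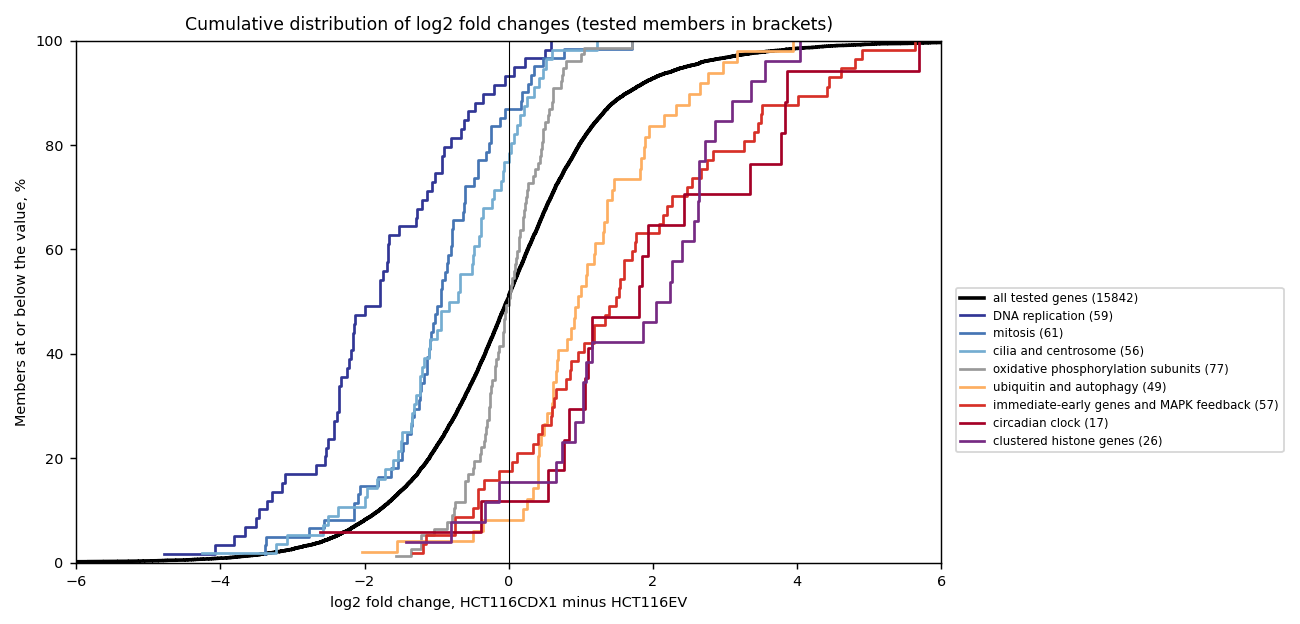
Cumulative share of tested members (vertical axis, %) at or below a log2 fold change of HCT116CDX1 over HCT116EV (horizontal axis) for 8 lists and for all 15842 tested genes (black). The replication curve lies to the left, the immediate-early, clock and histone curves to the right, and oxidative phosphorylation rises steeply at 0.

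The intestinal factors rose in part. Of 25 tested intestinal transcription factors, CDX1 itself among them, 12 were induced and 4 repressed. The lowest log2 fold change in the list was -4.6, the value given above for EHF. GATA6 was at 5.08, 4.64 and 4.14 CPM in HCT116EV and at 22.2, 21.6 and 24.1 CPM in HCT116CDX1 (2.30 ± 0.11), with 11.4 CPM in HCT116EHF. FOXA1 was at 0.517 to 1.76 CPM against 18.7 to 21 CPM (4.10 ± 0.29), and PRDM1, also known as a regulator of the fetal intestine, at 0.775 to 1.32 CPM against 40.2 to 74.3 CPM (5.65 ± 0.27). SOX9 was at 57.1 to 65.7 CPM against 135 to 170 CPM (1.36 ± 0.10). ELF3 was at 73.5, 72.1 and 121 CPM against 187, 254 and 183 CPM (1.23 ± 0.20), a call not made by limma or with HCT116EV replicate 3 alone. HNF4A was repressed, from 18.5 to 27.1 CPM to 8.5 to 10.6 CPM (-1.35 ± 0.16). CDX2 did not pass, at 28.9, 37.6 and 23.1 CPM against 37.3, 42.1 and 40.3 CPM (0.42 ± 0.15, adjusted p = 0.848 in edgeR).

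The differentiation markers of the study stayed low. VIL1 was at 0 to 0.129 CPM, GPA33 at 0 to 0.142 CPM and CDH17 at 0.0431 to 0.354 CPM over the 6 libraries, and KRT20 was at 0.994 to 1.77 CPM in HCT116EV and at 1.36 to 1.59 CPM in HCT116CDX1. None of these 4 passed the test (adjusted p = 0.831 to 1 in edgeR). Among the stem cell genes OLFM4 and ASCL2 did not pass, and LGR5 was at 0.0431, 0 and 0.0184 CPM against 0.285, 0.278 and 0.257 CPM, which passed at a level of few reads. ISX, a direct target of CDX factors, was at 0 in HCT116EV and at 0, 0.152 and 0.0257 CPM in HCT116CDX1. In HCT116EHF+CDX1 the means were 50.5 CPM for VIL1, 19 CPM for GPA33, 31.8 CPM for CDH17 and 3.59 CPM for ISX. Enterocyte and brush border markers as a list had 10 of 32 induced and 4 repressed. CA2, a colonocyte carbonic anhydrase, was at 19.6, 17 and 9.45 CPM against 118, 87.9 and 86.7 CPM (2.68 ± 0.22), and the brush border motors MYO6 and MYO5B were at 1.51 ± 0.11 and 1.37 ± 0.09. Goblet and secretory markers had 5 of 28 induced and 9 repressed, MUC4 from 0.301 to 2.33 CPM to 5.25 to 6.57 CPM. There were 9 induced without HCT116EV replicate 3. Digestion and transport genes had 2 of 15 induced and 3 repressed, with 5 induced without that library and 6 repressed with it alone.

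Wnt targets fell more often than they rose. Of 20 tested, 9 were repressed and 1 induced (median -0.62), and among 20 crypt stem cell genes 6 were repressed and 7 induced. Over both groups 8 were induced, and 5 with HCT116EV replicate 3 alone. AXIN2, a feedback gene of the Wnt pathway, was at 98.8, 108 and 24 CPM in HCT116EV and at 8.32, 4.60 and 4.86 CPM in HCT116CDX1 (-3.69 ± 0.46). BMP4 was at 740, 748 and 859 CPM against 64.2, 74.4 and 70.7 CPM (-3.49 ± 0.11) and was low in HCT116EHF as well, at 38.6 CPM. In the Notch pathway 9 of 23 tested genes were induced and 3 repressed, and among BMP and TGF-beta genes 8 of 35 were induced and 12 repressed. LFNG, a modifier of Notch receptors, was at 27.4 to 31.1 CPM against 0.669 to 0.811 CPM (-5.27 ± 0.13), while the target HES1 was at 18.8 to 20.5 CPM against 91.9 to 170 CPM (2.69 ± 0.18). SMAD6, an inhibitor of BMP signalling, was repressed, at -2.91 ± 0.22. Of the HOX genes 8 of 30 were induced and 10 repressed. The split ran by cluster, a grouping made after the values were seen, with 4 of 11 HOXA genes induced and 2 repressed, and 0 of 9 HOXB genes induced and 6 repressed. HOXB4 was at 29.2 to 42.3 CPM against 6.82 to 9.92 CPM (-2.12 ± 0.16). With voom and quantile normalization 4 HOX genes were repressed.

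Epithelial structure was altered without a single direction. Of 60 junction and keratin genes 13 were induced and 12 repressed. KRT19 was at 1390, 1450 and 1140 CPM in HCT116EV and at 379, 498 and 442 CPM in HCT116CDX1 (-1.59 ± 0.12), and KRT23 at 28.2 to 51.9 CPM against 0.978 to 1.14 CPM (-5.33 ± 0.22). The desmosome cadherin DSC3 was at 1.46 to 2.85 CPM against 27.3 to 39.0 CPM (3.96 ± 0.21), and PARD6B, a polarity protein, at 19.9 to 41.4 CPM against 149 to 233 CPM (2.74 ± 0.27). Without HCT116EV replicate 3 there were 25 induced. Integrins and adhesion genes had 6 of 36 induced and 7 repressed. Leaving out HCT116EV replicate 3 gave 13 induced, with it alone 11 repressed, and with voom and quantile normalization 1 induced. Actin and motility genes had 15 of 50 induced and 4 repressed, among them RND3, a small GTPase-like protein that loosens stress fibres, at 0.0551 to 0.142 CPM against 62.4 to 85.9 CPM, and it averaged 33.2 CPM in HCT116EHF. With HCT116EV replicate 3 alone 27 actin and motility genes were induced, and with voom and quantile normalization 7. S100 proteins and annexins had 10 of 21 induced, ANXA5 at 77.3 to 134 CPM against 647 to 791 CPM (2.65 ± 0.18), and 3 repressed, S100A4 at -2.61 ± 0.24.

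Mesenchymal and matrix genes had 21 of 53 induced and 14 repressed. Of the EMT transcription factors tested 4 of 4 were induced, a grouping made after the values were seen. SNAI2 was at 0.388, 0.426 and 0.331 CPM in HCT116EV and at 32.9, 20.6 and 22.0 CPM in HCT116CDX1 (6.08 ± 0.33), and ZEB1 at 0.904 to 1.69 CPM against 12.5 to 19.7 CPM (3.56 ± 0.26). TWIST1 was at 0 in HCT116EV and at 0.329 to 0.556 CPM in HCT116CDX1, at least 2.86-fold higher than a floor of 3 counts in the smallest library. It averaged 0.666 CPM in HCT116EHF and 0.669 CPM in HCT116EHF+CDX1, and its place among the tested genes rests on those lines. CDH1 did not follow, at 134, 129 and 374 CPM against 125, 110 and 116 CPM. THBS1, a matrix glycoprotein, was at 2.13 to 18.5 CPM against 164 to 349 CPM (4.89 ± 0.63). There were 25 induced and 9 repressed without HCT116EV replicate 3, and 16 and 21 with it alone. Markers of fibroblasts were summed at 34.5 to 76.7 CPM in HCT116EV and at 168 to 220 CPM in HCT116CDX1, and nearly all of this was COL1A1. LUM was at 0 in all 6 libraries and DCN at most at 0.0515 CPM. The 10 leukocyte markers summed to 2.93 to 16.3 CPM and 85.7 to 97.3 CPM, most of it CD68, a lysosomal protein. Of the 6 leukocyte markers tested 4 were induced and 1 was repressed. CD14 was at 0 to 0.147 CPM against 2.86 to 3.81 CPM, and CD79A at 0.0947 to 0.257 CPM against 1.84 to 2.05 CPM. MS4A1 was at 0 and PTPRC at most at 0.152 CPM. The part of other cells in the matrix and immune values was not tested. In the list of other cell types 7 of the 16 tested were induced and 3 repressed.

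Interferon genes were mixed. Of 65 tested 10 were induced and 15 repressed (median -0.35), with OAS3 at 40.6, 42.9 and 27.0 CPM in HCT116EV against 6.86, 6.80 and 7.33 CPM in HCT116CDX1 (-2.39 ± 0.15) and ISG20 at 1.77 to 2.08 CPM against 11 to 16.8 CPM (2.84 ± 0.19). Without HCT116EV replicate 3 there were 17 induced and 13 repressed, and the median was 0.10. Of 17 genes of MHC class I presentation 2 were induced and 3 repressed, and without that library 8 and 4.

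HCT116EHF+CDX1 was derived from HCT116CDX1, and in the same fit 3520 genes (22.2%) were higher in it than in HCT116CDX1 and 2970 (18.7%) lower. This comparison shares the HCT116CDX1 libraries with the one above, so the values are given side by side without an overlap. Of the 59 replication genes 47 were higher in HCT116EHF+CDX1 and 0 lower, of the 66 repair genes 36 and 4, of the 61 mitosis genes 35 and 0, and of the 56 cilia genes 23 and 1. Of the 57 immediate-early genes 36 were lower and 2 higher, of the 17 clock genes 13 and 0, of the 49 ubiquitin and autophagy genes 28 and 2, and of the 41 heat shock genes 29 and 0. In HCT116EHF+CDX1 MCM4 averaged 307 CPM, between HCT116EHF at 248 CPM and HCT116EV at 449 CPM. JUN averaged 133 CPM there, against 113 CPM in HCT116EHF, 31.3 CPM in HCT116EV and 1570 CPM in HCT116CDX1. CDX1 averaged 5420 CPM in HCT116EHF+CDX1. GATA6 and SOX9 did not differ past the test between these lines (-0.35 and 0.12), and neither did BMP4 (0.23) or H19 (0.49). Interferon genes stood out, with 48 of 65 higher in HCT116EHF+CDX1 and 0 lower.

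The calls also varied with level. With the genes cut into 5 equal classes by mean level, 24.6% were induced and 12.2% repressed in the highest class (median 0.22), and 17% and 34.1% in the next to lowest (median -0.38). In 5 classes of exonic length, matched for 97.1% of the genes, the medians ran from -0.11 to 0.04, and in 5 classes of genomic span from -0.12 to 0.07.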

How the data were processed

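RNA of 12 libraries was sequenced by the authors, who aligned reads with Subread 2.0.0 to GRCh38/hg38 and counted uniquely mapped reads per RefSeq gene with featureCounts 2.0.0. The strand setting is not given in the sources used here. The deposited table holds raw counts of 28395 genes, 550 of them without a symbol. The authors also deposited log2 RPKM values per library, used here only as an alternative. Genes entered the fit where 3 or more libraries reached a CPM of 0.5 (15853, of which 11 Y-linked genes are not reported). Counts were scaled with TMM factors and fitted over all 12 libraries with edgeR 4.0.16 (quasi-likelihood, R 4.3.3). Log2 fold changes and SE come from that fit, and adjusted p-values and calls from glmTreat against 1.5-fold with Benjamini-Hochberg adjustment over all tested genes. CPM values are per library, unadjusted for length. Lists are described by counts and medians, without a set test. The lists and the part of the series described were chosen with earlier results of these data known. Named genes were those of the study, the 10 largest rises and falls that did not overlap (mean log2 CPM of at least 3), and up to 3 per list and direction (at least 1). Genes of complexes and promoter motifs, members given as not past the test and the mitochondrial genes were chosen after their values were seen. RefSeq promoter windows matched 12082 genes. Alternatives used DESeq2 1.42.0 and limma 3.58.1, other scaling, filters and left-out libraries. The scripts were tested on simulated data. The depth of 13523007 to 74186741 counts sets floors of 3 counts per library, which cover counting error only. Some genes that the rule names are not reported here.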

Additional observations from a re-analysis of the deposited data

How the results depend on the processing

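Against no change in place of a 1.5-fold change, 5352 genes were higher in HCT116CDX1 and 5558 lower. Under the other settings the counts stayed within 1.5 times of 3384 induced and 3680 repressed genes. Upper quartile factors gave 2772 and 4367 genes with an all-gene median of -0.20, and total counts gave 2273 and 5104. Leaving out each library in turn gave 3048 to 4160 induced and 3360 to 3930 repressed genes, the highest of both without HCT116EV replicate 3. That replicate alone, a comparison added after seeing the data, gave 3890 and 4163. With the replicate number as a block there were 3389 and 3579 genes. Same-numbered HCT116EV and HCT116CDX1 libraries did not deviate together (correlations of -0.00301, 0.0208 and -0.00482 across genes), so the numbers were not taken as pairs. Of the values of 278 named genes over 18 settings, 4844 kept their direction and side of the threshold, 152 of 45 genes no longer passed, 6 of 4 genes newly passed, and 0 turned direction. The 152 include ELF3 (0.92 with voom and 0.92 on log2 RPKM), and LIG4, ERCC6, KRT18 and EPCAM under several settings. The cause was not tested. DESeq2 gave no adjusted p for CXCL1 and NEAT1, which are not counted. Depth limits the markers near 0, where a library holds few reads. With total counts 8 actin, 8 junction and keratin, 5 S100 and annexin, 12 ER to Golgi, 2 integrin and 4 interferon genes were induced, and 24 mitochondrial ribosomal and 13 glycolysis and hypoxia genes repressed.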

Other observations

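Further values lie outside the lists. Among the nuclear chromosomes reported, the median log2 fold change ran from -0.34 on chromosome 22 to 0.33 on chromosome 18. On chromosome 22, 59 of 407 tested genes were induced and 120 repressed, and on chromosome 18, 59 of 211 were induced and 37 repressed. The mitochondrial genome was lower, at -0.89 over 28 tested genes. Chromosome 6 was at 0.25, with 234 of 810 induced and 141 repressed. Of 1013 long noncoding RNAs 179 were induced and 270 repressed (median -0.28), and of 134 small nucleolar RNAs 18 and 14 (median -0.02). The vault RNA VTRNA1-3 had a log2 fold change of 4.07 ± 0.46 and was chosen after its values were seen.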
